A study of Mus musculus with 2 samples.

Results

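The genes that encode the proteins of the cytosolic ribosome were examined in YFP+ regulatory T cells (Tregs) from the spleen. A gene counted as a member when its symbol was Rpl or Rps followed by a number, with at most a letter and a digit after it, or was Rplp0, Rplp1, Rplp2 or Rpsa. Pseudogenes and ribosomal protein kinases stayed out. Of 32285 features, 83 were members. The WT library came from Foxp3-Cre mice and the KO library from Zfp335fl/flFoxp3-Cre mice, all 7-day-old and C57BL/6J, so that the controls carried the same Cre, which is driven by the gene of the Treg transcription factor Foxp3. From each genotype 1 droplet library of single cells was made, from spleen cells sorted as YFP+7AAD- and, by the study's methods, CD4+, where YFP marks Foxp3-Cre cells and 7AAD stains dead ones. How many mice each library holds is not given. In this assay a barcode stands for a cell and a unique molecular identifier (UMI) for a transcript molecule. The study asked what the loss of Zfp335 does to Tregs early in life.

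Ribosomal protein mRNAs are among the most abundant of any cell, and their proteins are needed in equal amounts, so that the genes are usually expressed together. Many of the mRNAs begin with a run of pyrimidines, the 5′ terminal oligopyrimidine (TOP) element, through which growth signals set their translation. Resting lymphocytes are small and make few ribosomes, whereas activated ones enlarge and build more. A few members are paralogs of others, such as Rps27l, a known target of p53, and Rpl22l1, which can stand in for Rpl22.

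The WT library held 14524 barcodes and the KO library 18134, with 64567991 and 65480052 UMIs. Barcodes with at least 300 genes, at most 5% mitochondrial UMIs and no high doublet score numbered 7825 in WT and 12726 in KO, with medians of 5049 and 2706 UMIs. The libraries shared 26 of these barcode sequences. The mitochondrial limit left out 6471 barcodes in WT and 4364 in KO. Members took 19.3% of the UMIs of such barcodes in WT and 22.2% in KO. Neither genotype has a replicate library, so no test between genotypes was possible, and every interval below is a 95% interval of counting error alone. Zfp335 (ENSMUSG00000039834, chromosome 2, 164891882 to 164911757, GRCm38) had 420 UMIs in WT and 57 in KO over all kept barcodes, a KO to WT ratio of 0.134 per total UMIs, so the level of the targeted gene went with the labels. In barcodes of lineages other than T cells it had 39 and 17 UMIs, a ratio of 0.506 (0.268 to 0.915).

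Barcodes were clustered without the members, which entered neither the clustered genes nor the scaling total. Clusters 1 and 3 were resting Treg-like, with 12 and 10 of 12 resting markers raised, and held 2373 WT and 4764 KO barcodes. Cluster 4 was effector Treg-like, with 16 of 16 markers raised, and held 2199 WT but only 73 KO barcodes. Cluster 5 is called activated Treg-like, although 15 of 20 S-phase markers were raised in it beside 8 of 16 activation markers. Cluster 7 was S-phase-like, with 17 of 20 S-phase, 14 of 14 mitotic and 14 of 16 effector markers raised. Foxp3 was detected in every T-lineage cluster, at 25.2 to 65.6 CPM (a gene's UMIs for every 1000000 UMIs of the class). Clusters 2, 6 and 8 carried T cell genes but stayed unnamed. Haemoglobin and myeloid granule genes led clusters 2 and 8, which held 4047 and 855 KO but 127 and 18 WT barcodes, and ribosomal RNA-like and haemoglobin genes led cluster 6, with 1352 WT and 346 KO barcodes. Other lineages made up 571 WT and 654 KO barcodes, namely erythroid-like (clusters 9 and 11), myeloid progenitor-like, neutrophil-like and B cell-like. The sort for CD4 and YFP should remove such cells. The myeloid progenitor-like class may be mixed, with 7 of 7 mast cell or basophil and 11 of 11 macrophage markers raised beside 7 of 7 progenitor markers. At resolution 1.0 a progenitor cluster held 102 WT and 104 KO barcodes, and a macrophage-like cluster led by Mcpt8 held 54 and 23.

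The members together took 28.0% of all kept UMIs in WT and 30.1% in KO. They were expressed broadly and evenly, since 79 of 83 exceeded 100 CPM in each library and the 5 most abundant held 11.6% of the member UMIs in WT and 11.2% in KO. Rpsa, the small-subunit protein also known as the laminin receptor, had the most UMIs, at 7101 CPM in WT and 6944 CPM in KO. Rpl13, Rps29 and the stalk protein Rplp1 were also among these 5, at 6159 to 6545 CPM in WT and 6560 to 6647 CPM in KO. These levels are UMIs from 3′ tags, and members with near-identical copies may lose UMIs, so the order of the transcripts is uncertain. The other 4 members were paralogs. Rpl10l had 0 UMIs in the kept barcodes of both libraries, which allows at most 0.0571 CPM in WT and 0.0563 CPM in KO, by a floor of 3 UMIs. Rpl3l, a striated muscle form, had 10 UMIs in WT and 8 in KO. Rpl39l, known from the testis, had 582 and 575 UMIs, and Rpl7l1, a relative of Rpl7, had 4337 and 4466. Large-subunit members took 15.6% and small-subunit members 12.5% of UMIs in WT, and 16.7% and 13.4% in KO.

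The first comparison asked how the ribosomal protein programme differed between Treg states. In WT the member share of UMIs was 31.2% (31.1 to 31.2) in resting and 31.0% (31.0 to 31.0) in activated Treg-like barcodes, 27.5% (27.5 to 27.5) in effector and 25.8% (25.7 to 25.8) in S-phase-like barcodes. In KO it was 31.9%, 32.8%, 28.9% and 26.8% in the same order. Both libraries thus had their highest shares in the resting and activated classes and their lowest in the S-phase-like class, with effector barcodes between. Single barcodes spread widely around these values, with SDs of 4.42 to 5.22 percentage points in the 8 class and library groups, so the classes overlapped. The order of the shares did not follow depth, since the median in WT was 4108 UMIs in resting, 7368 in effector, 10430 in activated and 13310 in S-phase-like barcodes. Member UMIs per barcode, not corrected for depth, had another order than the shares. Their medians were 1262 in resting, 2032 in effector, 3282 in activated and 3314 in S-phase-like WT barcodes. In KO they were 1154, 1938, 2659 and 2057 in the same order of classes.

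**Figure D1:**
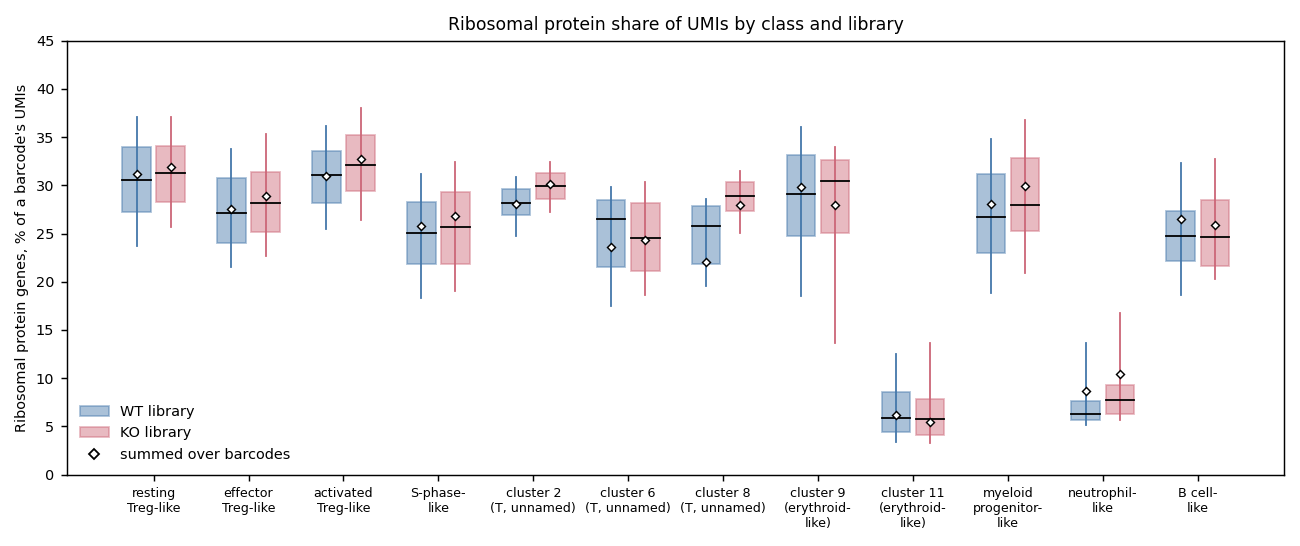
Ribosomal protein share of each barcode's UMIs (y axis, percent) by class (x axis) in the WT (blue) and KO (red) libraries. Boxes span the quartiles, lines the 10th to 90th percentiles, black bars mark medians and diamonds the share of summed UMIs. In resting Treg-like barcodes the medians were 30.5% in WT and 31.3% in KO, and cluster 11 and neutrophil-like barcodes sat far below the other classes.

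The lower share of the S-phase-like class was spread over many members. Measured as CPM, 23 of 81 members were at least 20% lower than in resting barcodes in both libraries, beside 22.7% of the 9662 genes tested, and 2 were at least 25% higher, beside 19.0%. The members that far below resting were thus about as frequent as among all genes. In effector barcodes 7 of 81 were lower by that much (15.5% of all genes) and 2 higher (15.5%), and in activated barcodes 1 was lower (30.4%) and 7 higher (24.9%). The effector values in KO rest on 73 barcodes, and the genes tested include many with far fewer UMIs than most members. Rps27 was at least 20% lower and Rps27l at least 25% higher in all 3 classes, and no other member was so in either direction.

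Rps27 and its paralog Rps27l differed from resting in opposite directions. Rps27, a zinc-finger protein of the small subunit, stood at 4677 CPM in resting WT barcodes, 3062 in effector, 2960 in activated and 2449 in S-phase-like barcodes. In KO it stood at 4335, 2930, 3173 and 2890 CPM. Every state was below resting in both libraries. Rps27l stood at 155 CPM in resting, 274 in effector, 414 in activated and 342 in S-phase-like WT barcodes, and at 188, 299, 470 and 316 CPM in KO. All 3 states exceeded resting in each library, by 2.67-fold (2.52 to 2.84) in activated WT and 2.50-fold (2.39 to 2.60) in activated KO barcodes. The Rps27l UMIs per 100 Rps27 UMIs were accordingly 3.32 in resting and 14.0 in activated WT barcodes, and 4.34 and 14.8 in KO. Rps27rt, a retrogene with a sequence like that of Rps27, had 2864 UMIs in WT and 4092 in KO, so the split of reads between the copies is uncertain. Annotated ribosomal pseudogenes had few UMIs, with 0.0426 in WT and 0.0465 in KO per 100 member UMIs over 5 features.

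The annotated starts of the pair differ at the first base. The windows run from 30 bases before to 15 bases from the RefSeq start (GRCm38.p6), and capitals mark a C at the start with the pyrimidines that follow it without a break.
Rps27 (chr3:90213634-90213678, minus strand): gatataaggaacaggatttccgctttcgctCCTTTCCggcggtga
Rps27l (chr9:66946056-66946100, plus strand): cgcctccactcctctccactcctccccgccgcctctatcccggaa
Rps27 begins with a pyrimidine run, and Rps27l begins with a G at the more upstream of its 2 annotated starts. A short pyrimidine run follows that G directly, so the pair differs at the annotated base only.

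Rps2, a small-subunit protein near the mRNA entry site, was higher in the same states as Rps27l. It had 2629 CPM in resting, 3588 in effector, 4465 in activated and 3867 in S-phase-like WT barcodes. In KO it had 3088, 4254, 5080 and 3458 CPM. All 6 values lay above resting of the same library, although the S-phase-like excess was 1.47-fold in WT and 1.12-fold in KO. Rpl7l1 had 62.8 CPM in resting and 138 in activated WT barcodes, and 65.0 and 125 in KO. Rpsa was 1.20-fold higher in effector than in resting WT barcodes (1.19 to 1.21) and 1.22-fold higher in KO (1.187 to 1.255).

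The same genes stood out in the erythroid-like cluster 9, in which 20 of 20 S-phase markers were raised, and in myeloid progenitor-like barcodes. In cluster 9 the log2 ratio to resting of the gene's share among member UMIs was 1.89 in WT and 1.46 in KO for Rps27l, 1.11 and 0.84 for Rps2, and -0.94 and -0.74 for Rps27. In myeloid progenitor-like barcodes Rps27l was at 1.61 and 1.13, Rps2 at 0.73 and 0.70 and Rps27 at -0.82 and -0.71. B cell-like barcodes did not share this pattern, since Rps27 was at 0.12 and 0.21 there, on 42 WT and 29 KO barcodes. T cell genes averaged 117 to 277 CPM in the clusters of other lineages and 681 to 993 CPM in the T-lineage clusters, so those barcodes hold some T cell RNA, whose part in these values was not tested.

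**Figure D2:**
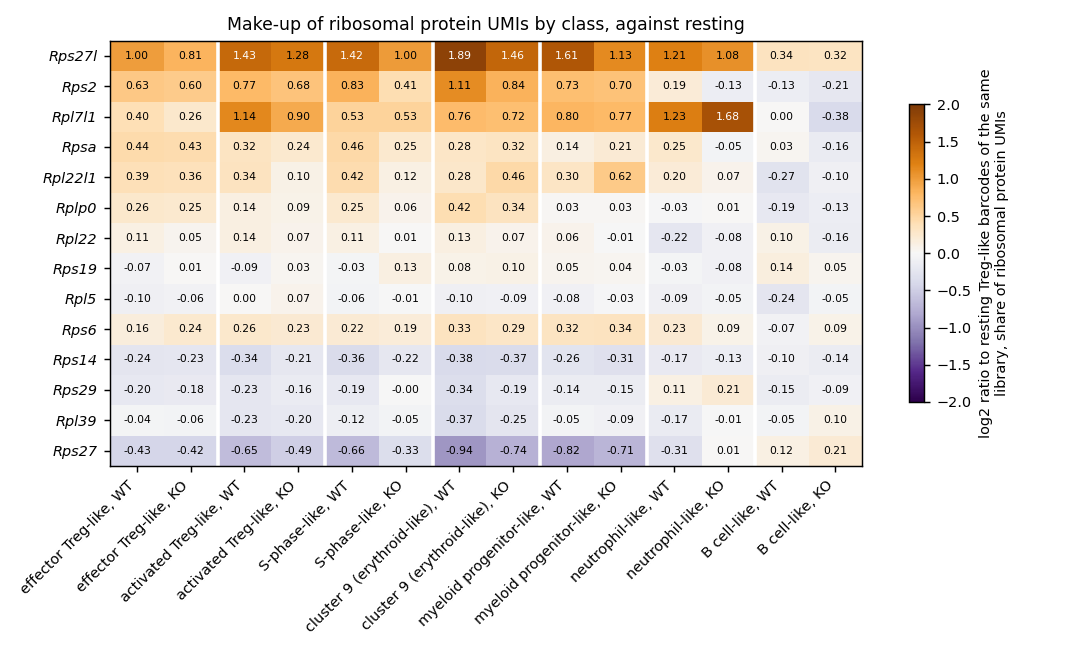
Log2 ratio of each gene's share of ribosomal protein UMIs (colour and numbers) to that in resting Treg-like barcodes of the same library, for 14 members (rows) in 7 classes of the WT and KO libraries (columns). Rps27l and Rps2 were above 0 in each T cell class of both libraries and Rps27 below 0.

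The lowest shares were found in cluster 11 and in neutrophil-like barcodes. The members took 6.19% (6.12 to 6.27) of UMIs in WT and 5.44% (5.38 to 5.49) in KO in cluster 11, erythroid-like barcodes in which haemoglobin genes took 68.5% and 74.8%. In neutrophil-like barcodes they took 8.69% (8.63 to 8.75) in WT and 10.5% (10.4 to 10.6) in KO, beside 29.8% and 25.9% for neutrophil granule genes. The erythroid-like cluster 9 and the myeloid progenitor-like barcodes had 29.9% and 28.1% in WT and 28.0% and 30.0% in KO, close to the T cell classes.

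The next comparison asked whether loss of Zfp335 was accompanied by a difference in ribosomal protein genes. In resting Treg-like barcodes the share was 31.2% in WT and 31.9% (31.9 to 31.9) in KO, a difference of 0.766 percentage points (0.731 to 0.800), against SDs between barcodes of 5.22 and 4.55 points. The difference was 1.41 points (1.29 to 1.52) in effector, 1.75 (1.71 to 1.80) in activated and 1.07 (1.03 to 1.11) in S-phase-like barcodes, each higher in KO. The S-phase-like class also had effector markers raised. At resolution 1.0 a cluster led by both histone and effector genes held 366 WT but 11 KO barcodes. S-phase-like KO to WT values, here and below, may thus compare unlike mixes of states, which was not tested. Within the resting class the direction was not uniform. Cluster 1 had 30.0% in WT and 31.1% in KO, whereas cluster 3 had 32.8% in WT and 32.6% in KO. Over all kept barcodes the difference was 2.07 points (2.06 to 2.09), with the classes holding different parts of each library. The unnamed T-lineage clusters 2, 6 and 8 had 28.0%, 23.6% and 22.1% in WT and 30.2%, 24.3% and 27.9% in KO, and haemoglobin genes took 21.2% of the UMIs of the 18 WT barcodes of cluster 8. The median over barcodes of cluster 6 was 26.5% in WT and 24.5% in KO. The direction in cluster 6 thus depends on how barcodes are weighted.

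The resting difference varied with depth. Among barcodes of 1000 to 2000 UMIs the share was 24.6% in 65 WT and 28.9% in 523 KO barcodes. At 2000 to 3000 UMIs it was 27.3% and 30.3%, and at 3000 to 5000 UMIs 30.8% and 31.55%. The libraries were closest at 5000 to 10000 UMIs, with 32.65% in 654 WT and 32.76% in 1236 KO barcodes, and differed most at 1000 to 2000 UMIs. The deepest barcodes, at 10000 to 20000 UMIs, had 31.8% in WT and 34.4% in KO, on 23 and 95 barcodes. Ribosomal RNA-like features, which took 1.54% of resting UMIs in WT and 0.571% in KO, also differed between the libraries. With these and the haemoglobin, granule and mitochondrial UMIs left out of the total, the resting difference was 0.409 points.

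Gene by gene, the libraries were close. Of the 81 members with at least 50 UMIs in resting barcodes, 56 were higher in KO and 25 lower, whereas 39.2% of the 10352 genes tested were higher in KO. The median log2 KO to WT ratio was 0.04 for members and -0.10 for all genes. Only Rpl39l, the member tested with the fewest UMIs, was at least 25% higher in KO, against 8.86% of all genes. 0 members were at least 20% lower, against 27.8%. The genes tested include many with far fewer UMIs than most members, so these shares are not matched for depth. Among all genes with at least 500 UMIs the median log2 ratio was -0.02. Rpl39l had 89 UMIs in WT and 244 in KO, a ratio of 1.42 (1.11 to 1.84), and its ratio was 1.19 in cluster 1 and 1.59 in cluster 3. In cluster 1, 59 of 81 members were higher in KO (39.0% of all genes), and in cluster 3, 36 of 81 (43.9%).

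**Figure D3:**
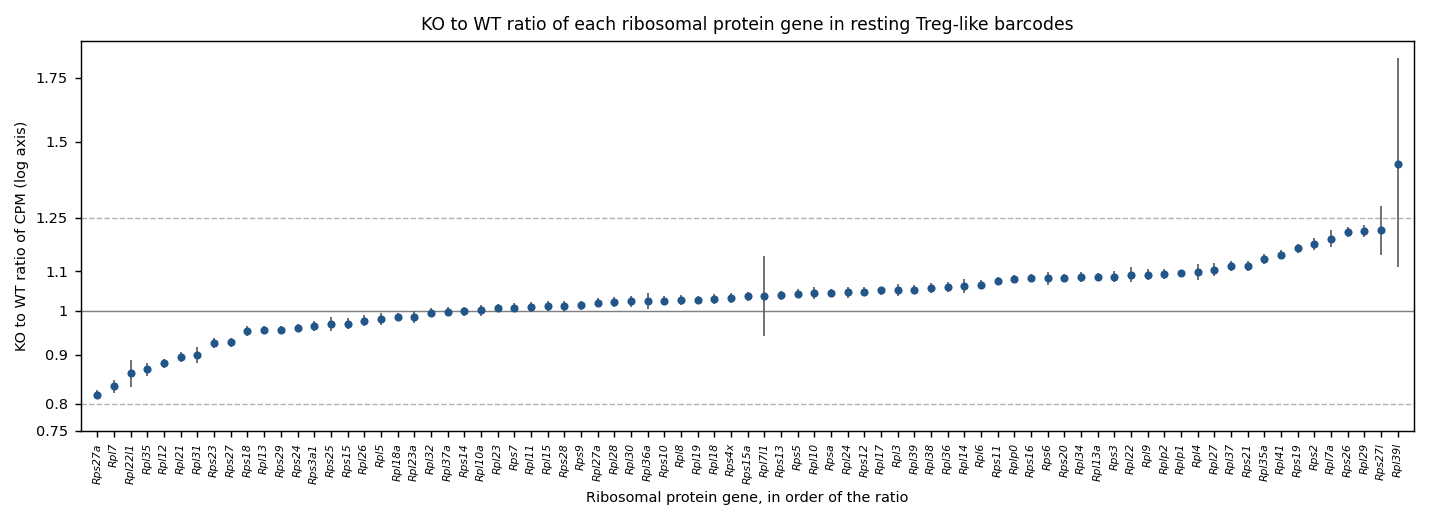
KO to WT ratio of CPM (y axis, log scale) of 79 of the 81 members tested in resting Treg-like barcodes, in order of the ratio (x axis). Points are ratios, vertical lines 95% counting intervals and dashed lines mark 25% higher and 20% lower. Apart from Rpl39l, every ratio shown lay between these lines, from 0.818 for Rps27a to 1.21 for Rps27l.

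At the low end of this range stood members of both subunits. Rps27a, which is made as a fusion with ubiquitin, stood at 5436 CPM in WT and 4444 in KO, a ratio of 0.818 (0.809 to 0.826). Rpl7 stood at 2851 and 2377 CPM, a ratio of 0.834 (0.822 to 0.846). Fau, a ribosomal protein made as a fusion with a ubiquitin-like domain, and the small-subunit scaffold Rack1, which are not members by symbol, were at 1.01 and 1.05. Rpl22l1, Rpl35, Rpl12, Rpl21 and Rpl31 had ratios of 0.860, 0.869, 0.882, 0.894 and 0.900.

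At the high end below Rpl39l stood Rps27l, Rpl29, Rps26, Rpl7a, Rps2, Rps19 and Rpl41, with ratios from 1.21 to 1.14. Rps19, the member most often mutated in Diamond-Blackfan anaemia, had 4231 CPM in WT and 4917 in KO, a ratio of 1.16 (1.15 to 1.18). Rps26, which contacts the mRNA near the exit channel, had 3701 and 4470 CPM, a ratio of 1.21 (1.19 to 1.22). The stalk proteins, which recruit elongation factors, lay just above 1 together, at 1.08 for Rplp0 and 1.09 for Rplp1 and Rplp2. Rpl5 and Rpl11, which bind Mdm2 when ribosome assembly is disturbed, were near 1, at 0.981 (0.967 to 0.996) and 1.01 (0.997 to 1.02). So were Rps14 and Rpsa, at 0.999 and 1.04, whereas Rps6, the substrate of S6 kinase, was at 1.08.

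These differences were compared across classes as the log2 KO to WT ratio of a gene's share among member UMIs, which removes the total member level. Rpl35 ran from -0.16 to -0.31 in clusters 1, 2 and 3 and the effector, activated and S-phase-like classes, and was at -0.35 in cluster 6. It ran from -0.26 to -0.32 in the other lineages. The lower share of Rpl35 in KO was therefore found in T-lineage classes and in other lineages. Rps27a ran from -0.26 to -0.40 in the same T-lineage groups and was at -0.47 in cluster 6, with -0.17 in cluster 9, -0.11 in myeloid progenitor-like and -0.06 in B cell-like barcodes. Rpl7 ran from -0.24 to -0.43 in all these T-lineage groups, and was at -0.11 in cluster 9, -0.06 in myeloid progenitor-like and 0.00 in B cell-like barcodes. Other lineages were not uniform, as Rps27a and Rpl7 were at -0.35 and -0.33 in neutrophil-like barcodes and at -0.53 and -0.31 in cluster 11. Rps19 and Rpl29 were above 0 in each of these groups, and so was Rps26 except in cluster 6, at -0.01. Cluster 8, with 18 WT barcodes, was not compared. T cell genes averaged 155 CPM in neutrophil-like barcodes and 136 CPM in cluster 11, beside 681 to 993 CPM in T-lineage clusters. They averaged 147 CPM in cluster 9, 117 in myeloid progenitor-like and 277 in B cell-like barcodes. The part of T cell RNA in the values of other lineages was not tested.

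**Figure D4:**
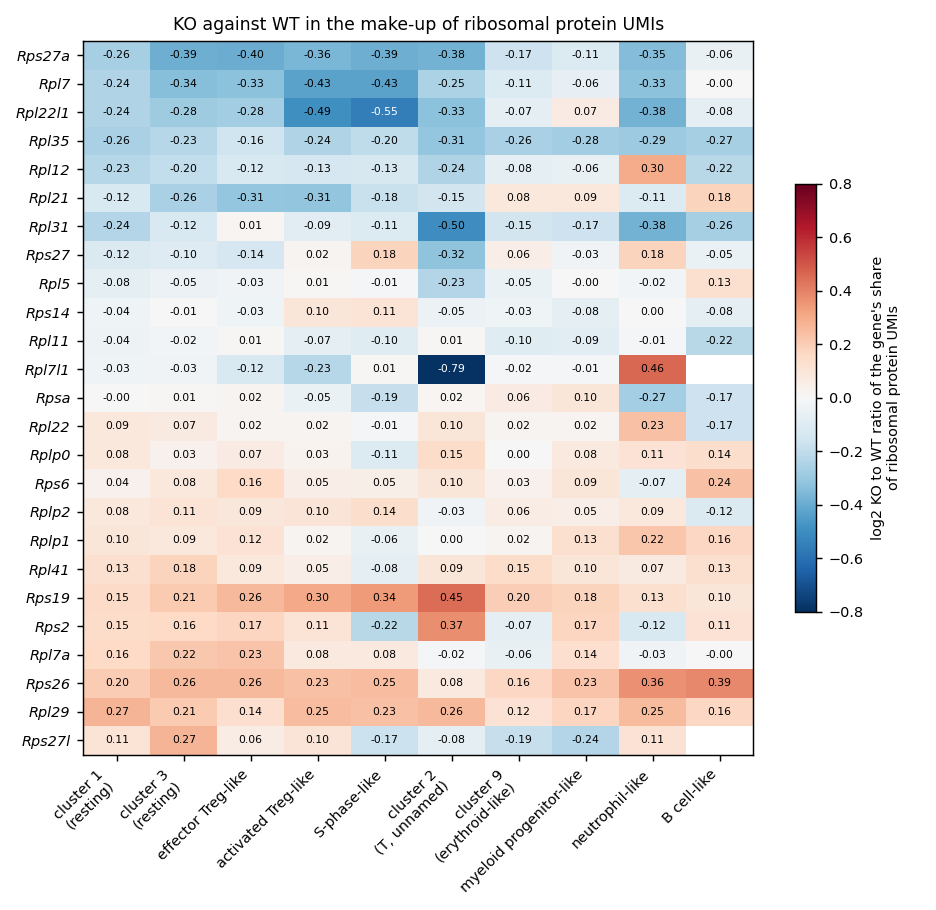
Log2 KO to WT ratio of each gene's share of ribosomal protein UMIs (colour and numbers) for 25 members (rows) in 10 clusters or classes (columns), with blanks where a gene had under 50 UMIs. Rpl35 was below 0 in every column, and Rps19, Rps26 and Rpl29 above 0 in every column.

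Rpl22l1 and Rpl22 differed between the libraries in opposite directions in Tregs. Rpl22, an RNA-binding protein of the large subunit with a known role in T cell development, stood at 1681 CPM in WT and 1832 in KO resting barcodes, a ratio of 1.09 (1.07 to 1.11). Rpl22l1 stood at 558 CPM in WT and 480 in KO, a ratio of 0.860 (0.833 to 0.889). The Rpl22l1 UMIs per 100 Rpl22 UMIs were 33.2 (32.2 to 34.2) in WT and 26.2 (25.6 to 26.8) in KO resting barcodes. They were 38.2 (37.1 to 39.4) and 26.8 (26.0 to 27.6) in activated, 41.2 (39.9 to 42.6) and 28.2 (27.2 to 29.2) in S-phase-like and 40.1 (39.3 to 41.0) and 32.5 (28.8 to 36.7) in effector barcodes. In each of these classes the WT value was higher and the intervals did not overlap. In WT the value was higher in every other Treg state than in resting. In KO the S-phase-like and effector intervals lay above that of resting, while the intervals of the activated and resting values overlapped.

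Outside the T lineage the same measure was close between libraries in the larger groups. Cluster 9 had 36.7 (34.5 to 39.0) in WT and 34.4 (31.8 to 37.1) in KO, and the values were 39.2 (36.7 to 41.8) and 40.5 (38.1 to 43.1) in myeloid progenitor-like barcodes. Neutrophil-like barcodes and cluster 11 had fewer UMIs and were lower in KO, at 44.3 (36.7 to 53.3) and 28.9 (22.9 to 36.2), and at 46.8 (33.8 to 64.3) and 22.9 (16.4 to 31.4). B cell-like barcodes had 25.5 and 27.0, with wide intervals. A lower KO value was thus also seen in neutrophil-like barcodes and cluster 11, but whether free T cell RNA contributes there was not tested.

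**Figure D5:**
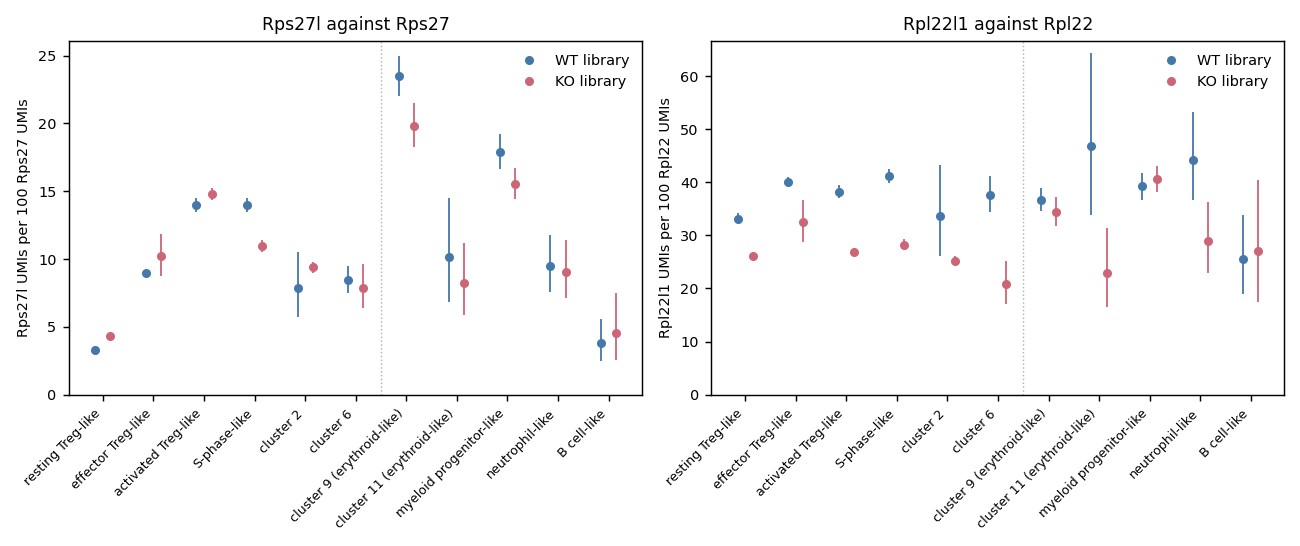
UMIs of the paralog per 100 UMIs of its parent gene (y axis) for Rps27l against Rps27 (left) and Rpl22l1 against Rpl22 (right) by class (x axis) in the WT (blue) and KO (red) libraries, with 95% counting intervals. A dotted line parts the T lineage from other lineages. The Rpl22l1 value was 41.2 in WT and 28.2 in KO in S-phase-like barcodes, and 39.2 and 40.5 in myeloid progenitor-like barcodes.

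Rpl35, which was lower in KO in every class compared, and Rpl22l1 also differ at the first base of their annotated starts. They are shown in the same way as the pair above.
Rpl22l1 (chr3:28805478-28805522, plus strand): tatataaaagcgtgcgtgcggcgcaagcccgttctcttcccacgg
Rpl35 (chr2:39005117-39005161, minus strand): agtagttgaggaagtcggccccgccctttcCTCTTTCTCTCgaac
Rpl35 begins with an unbroken pyrimidine run. Rpl22l1 begins with a G that a pyrimidine run follows directly.

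Rps27l was compared with other p53 targets, since it is one itself. In resting barcodes it had 155 CPM in WT and 188 in KO, a ratio of 1.21 (1.14 to 1.29). Of 10 listed p53 targets, 9 were tested, and 7 were higher in KO, with a median log2 ratio of 0.45, beside 39.2% and -0.10 for all genes. Cdkn1a, the cell cycle inhibitor p21, had 45 UMIs in WT and 342 in KO, a ratio of 3.94 (2.88 to 5.51). In activated and S-phase-like barcodes the list median was 1.38 and 1.23 on the log2 scale, beside -0.06 and 0.03 for all genes, while the log2 ratio of Rps27l was 0.18 and -0.11. In resting barcodes the latter was 0.28. The list median was thus higher in those classes than in resting barcodes and the Rps27l ratio lower.

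In the other T cell states most members were again slightly higher in KO. This held for 67 of 81 in activated barcodes (41.9% of all genes), 61 of 81 in effector (49.7%) and 55 of 81 in S-phase-like barcodes (53.1%), with medians of 0.09, 0.07 and 0.06 on the log2 scale. Among other lineages, 70 of 80 were higher in KO in myeloid progenitor-like barcodes (43.4%), 70 of 80 in neutrophil-like (60.5%) and 26 of 78 in B cell-like barcodes (55.0%). In cluster 9, 11 of 80 were higher (38.9%), and over both erythroid-like clusters 0 of 80 were (20.8%). The erythroid-like share was 26.5% in WT and 20.9% in KO, where haemoglobin genes took 15.4% and 31.1% of UMIs. Within cluster 9 the difference was -1.90 points and within cluster 11 -0.758 points. Over all other lineages the difference was -0.688 points (-0.739 to -0.637), but 1.01 points without the haemoglobin-rich cluster 11 and 0.778 points with haemoglobin, granule, ribosomal RNA-like and mitochondrial UMIs left out of the total.

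Related gene lists were read in the same way. These lists were chosen with earlier results of these data known. Among all genes, 39.2% were higher in KO in resting, 41.9% in activated and 53.1% in S-phase-like barcodes. Of 20 translation factors and other genes of TOP mRNAs, 13 were higher in KO and 7 lower in resting barcodes, with a median log2 ratio of 0.05, near that of the members. Mitochondrial ribosomal proteins, a separate set encoded in the nucleus, were higher in KO for 60 of 78 in resting barcodes (median 0.14) and for 22 of 78 in activated barcodes (median -0.11). Ribosome biogenesis genes were higher in KO for 9 of 18 in resting, 3 of 18 in activated and 15 of 18 in S-phase-like barcodes, with medians of 0.03, -0.13 and 0.52. The medians of the cytosolic members in the same classes were 0.04, 0.09 and 0.06. As said above, the S-phase-like values may compare unlike mixes of states.

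Some short motifs were found in a larger share of the members' promoters than of all promoters. RefSeq windows from 250 bases before to 50 after the annotated start matched 63 of the 83 members. A C at the start followed by 4 pyrimidines was found in 13 of 63 members (20.6%) and in 3.01% of 27025 genes, with any annotated start of a gene counting. Within 5 bases of the start it was found in 29 members (46.0%) and in 21.2% of genes. CCGGAAG, the core of sites for ETS factors, on either strand was found in 26 members (41.3%) and in 9.93% of genes, and AAGATGG, part of the YY1 site, on either strand in 10 members (15.9%) and in 7.28%. On the reverse strand CCGGAAG reads CTTCCGG, whose start also meets the pyrimidine motif, so the first and second motif can share bases. A pyrimidine run and CCGGAAG were found both in Rpl35, lower in KO, and in Rps6, higher in KO. The start of Rps6 is shown beside that of Rps2, which was higher in KO and in activated barcodes.
Rps2 (chr17:24720033-24720077, plus strand): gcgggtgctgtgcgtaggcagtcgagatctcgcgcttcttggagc
Rps6 (chr4:86857353-86857397, minus strand): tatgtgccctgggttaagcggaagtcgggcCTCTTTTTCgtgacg
Rps6 has a pyrimidine run at its annotated start. Rps2 has none at that base, but one begins within 5 bases after it. Both hold CCGGAAG within the 300 bases searched.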

How the data were processed

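Spleen YFP+ cells of WT and KO mice had been profiled with 1 droplet library each. Raw UMI counts for every gene in every barcode were deposited, made by the authors with Cell Ranger 5.0.1 (mm10). Reads that fit several genes equally are not counted by that tool, so members with near-identical copies may lose UMIs. Depth per library and per class is given in the report. A barcode needed 300 genes or more and no more than 5% mitochondrial UMIs, and the 5% of WT and 8% of KO barcodes with the highest Scrublet scores (scanpy 1.11.5) were removed, after the authors' doublet counts rather than the wording of their methods. Counts were scaled to 10000 UMIs outside the members. The 2000 most variable genes, without members, markers and genes of RNA quality, gave 30 principal components, a 20-neighbour graph (scikit-learn 1.9.0) and Leiden clusters at resolution 0.5 (igraph 0.11.9). Libraries were not integrated. Clusters were named from marker lists by a rule set with the data in view, on fold changes of at least 1.5 and at least 50% of a list raised.

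UMIs were summed per library and class. CPM has all UMIs of the class as its total. Log2 ratios had 0.5 added to each sum, and genes needed 50 UMIs over both libraries. Shares carry Clopper-Pearson, differences Newcombe, and ratios exact conditional binomial intervals at 95%. Functions were tested on simulated data. The members and lists were chosen with earlier results of these data known. Genes were named by a rule: paralogs and their parents, the 8 highest and 8 lowest KO to WT ratios in resting barcodes among members with at least 200 UMIs, members of known roles, the 5 with most UMIs, and the 3 per T cell class with the largest shift from resting. Positions are from Gencode vM21 and start windows from RefSeq, both GRCm38. Some genes that the rule names are not reported here.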

Additional observations from a re-analysis of the deposited data

Results flagged for a closer look

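Some KO minus WT differences ran in opposite directions in different classes, and none of these contrasts was tested, since each class holds 1 library per genotype. The ribosomal protein share of UMIs was higher in KO by 0.766 percentage points in resting Treg-like barcodes, whereas the erythroid-like value was -5.61 points. That class pools cluster 9, at -1.90 points, and the haemoglobin-rich cluster 11, at -0.758 points, which holds 373260 of 2596265 erythroid-like UMIs in WT and 697181 of 2209878 in KO. The median over barcodes differed by -0.97 points in the class and by 1.34 points in cluster 9, so the direction there depends on how barcodes are weighted. The Rpl22l1 UMIs per 100 Rpl22 UMIs differed by -11.5 (KO minus WT) in activated Treg-like barcodes and by 1.32 in myeloid progenitor-like barcodes, where the intervals of both libraries overlapped.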

How the results depend on the processing

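No paired analysis was possible because each genotype has 1 library. The resting difference in ribosomal protein share (0.766 points) was 0.817 with doublets kept, 0.641 with the doublet percentages exchanged, 0.426 with the mitochondrial filter at 10% and 0.543 without it, 0.375 with at least 500 genes, 0.804 with barcodes weighted equally, 0.998 at 2000 to 5000 UMIs, 0.409 with haemoglobin, granule, ribosomal RNA-like and mitochondrial UMIs left out, 0.389 at resolution 1.0, and 1.125 after thinning to 1000 UMIs. For all kept barcodes (2.07 points) the first 8 of these gave 2.095, 2.09, 2.26, 2.49, 2.11, 2.03, 1.55 and 2.17. The median log2 ratio of members (0.04) was 0.020 with the 10% filter, 0.023 with 500 genes, 0.068 at 2000 to 5000 UMIs and 0.022 at resolution 1.0. The difference in other lineages (-0.688 points) was -0.603, -0.428, -0.386 and -0.392 with the 10% filter, no such filter, 500 genes and equal weights, -0.258 after thinning, and turned to 0.741 at 2000 to 5000 UMIs and 0.778 with those UMIs left out.

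Chosen after seeing the data, cluster 1 alone gave 1.10 points in resting barcodes, and cluster 3 alone gave -0.248 points, a median of -0.015 and 36 members higher in KO instead of 56. Leaving out cluster 11 gave 1.01 points in other lineages. The cause of these shifts was not tested. Of 33 named genes, 28 kept their side of 1 in resting barcodes under all 13 alternatives, the exceptions being Rpl5, Rpl7l1, Rpl10, Rpl11 and Rps14. Without replicates, depth limits only counting error, and the spread between mice or libraries is not known.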
